A study of Mus musculus with 16 samples.

Results

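The comparison set the livers of 4 aged mice of the antibiotic group PAM II against those of 4 aged mice of the antibiotic group PAM I. Members were the 8 libraries whose experimental group in the labels was 1 of these, out of 16 liver libraries in the series, and no measured value was used to choose them. All 8 mice were 102 weeks old and had received antibiotics, and the series title places that exposure in early life. The labels name no drug, dose or route, do not say how PAM I and PAM II were told apart, and give no strain, sex, litter, cage or sampling hour. The other 8 libraries were 4 from mice of the same 102 weeks without antibiotics, called controls below, and 4 from mice of 12 weeks without antibiotics. They entered the fit so that all 4 groups shared an estimate of the spread. Each sample was total RNA from a frozen piece of liver, sequenced as paired reads of 100 bases. Nothing in the labels says that the 4 samples of a group came from separate litters or cages. A p-value therefore sets a difference against the spread between sequenced samples only, which for the gene tests was that within the 4 groups of the fit. The labels number no replicates: the replicate numbers 1 to 4 given below follow the order of the samples, only name a library, and pair none across groups.

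The liver is made up mostly of hepatocytes, which synthesise cholesterol, bile acids, clotting and complement proteins and break down drugs. Sinusoidal endothelium, resident macrophages (Kupffer cells), stellate cells and lymphocytes make up most of the rest. Portal blood carries products of gut bacteria straight to the liver, and for that reason the organ is often examined in studies of antibiotics and the gut microbiota.

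All 8 libraries held the RNA of hepatocytes, with Alb, which encodes albumin, at 37419 to 92102 CPM, the count of a gene relative to all counted fragments of its library after scaling by the trimmed mean of M-values. The depth, as fragments counted in genes, was 44532527 to 48706530 per library in PAM I and 41233838 to 52090914 in PAM II. Libraries of different groups were about as far from each other as libraries of the same group. The root mean square difference in log2 CPM had a median of 0.660 over the 6 pairs within PAM I, 0.594 over the 6 pairs within PAM II and 0.662 over the 16 pairs between them. On the leading axis of a principal component analysis of these 8 libraries, over the 500 genes that varied most, with 49.9% of the variance, PAM I replicates 1 and 2 lay on the same side as PAM II replicates 2, 3 and 4, and PAM I replicates 3 and 4 lay with PAM II replicate 1. Some libraries stood apart. Over 30 tested skeletal muscle genes, the mean log2 CPM was 0.73, 0.72, -1.66 and -1.94 in PAM I replicates 1 to 4 and -2.05, 0.01, 0.76 and 1.78 in PAM II replicates 1 to 4, with Acta1, a muscle actin, from 0 to 19.1 CPM in these 8. The mean over 22 neutrophil and bone marrow genes was 4.84 in PAM II replicate 1 and 0.40 to 1.74 in the other 7. The mean over 22 Kupffer cell genes was highest in PAM I replicate 3 and PAM II replicate 1, at 6.14 and 6.12. The adipose marker Adipoq reached no more than 0.0622 CPM and the pancreatic marker Prss2 no more than 0.145 CPM in any library. Cela1, the other pancreatic marker examined, was present in every library. It measured 8.07 to 18.2 CPM in PAM I, 8.11 to 15.7 CPM in PAM II and up to 26.6 CPM over all 16 libraries.

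No gene distinguished the livers of PAM II from those of PAM I in the main test. Of 17046 genes tested with edgeR's quasi-likelihood test over all 16 libraries, 0 (0%) had a Benjamini-Hochberg adjusted p under 0.05, and the smallest adjusted p was 0.880. At an unadjusted p under 0.05 there were 778 genes (4.56%), of which 387 (2.27%) were higher and 391 (2.29%) lower in PAM II. DESeq2 also called 0 genes, with 937 at an unadjusted p under 0.05, and limma voom with sample quality weights called 0, with 2936. Log2 fold changes, given throughout as PAM II minus PAM I, were positive for 8672 genes and negative for 8374, with a median of 0.01. The values of all 4 libraries of PAM II lay above all 4 of PAM I for 300 genes (1.76%) and below them for 495 (2.9%), together 4.66%. The 95% interval of a gene's log2 fold change reached 0.466 to either side of the estimate in the median. In whole tissue, fewer cells of a type and less RNA per cell cannot be told apart. Of the PAM I against control and PAM II against control comparisons, which share their controls, edgeR called 0 genes in each, with a smallest adjusted p of 0.506 for PAM I and 0.99996 for PAM II.

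**Figure D1:**
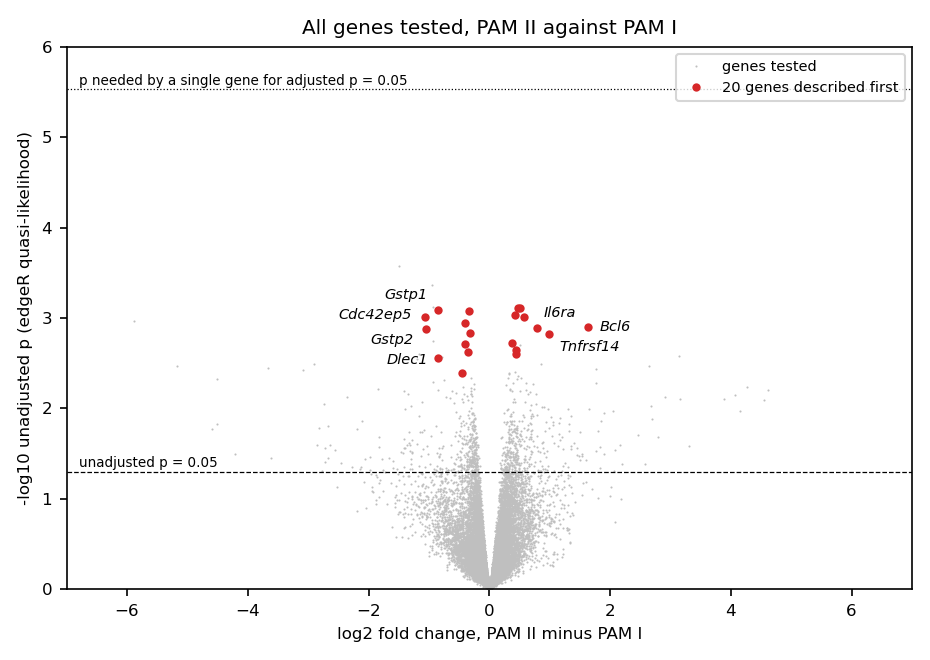
Log2 fold change, PAM II minus PAM I (x axis), against −log10 of the unadjusted edgeR p (y axis) for 17046 genes as grey points, with the 20 genes described first in red. The dashed line marks an unadjusted p of 0.05, and all genes lie under the dotted line that a single gene would need for an adjusted p of 0.05.

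First come 10 genes in each direction with the smallest unadjusted p. These were taken among genes whose log2 CPM averaged 1 or more over the 8 libraries and whose groups did not overlap, leaving out predicted genes, pseudogenes and receptor segments; 230 and 377 genes met these conditions. Every gene named in the text had an adjusted p of at least 0.880 in edgeR's quasi-likelihood test, so none passed, and values are given as a description. Log2 fold changes carry the standard error (SE) of the fit, and CPM values are listed in the order of replicates 1 to 4.

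Among genes with higher values in PAM II, Bcl6 had the largest difference of the 10. Bcl6, on chromosome 16 from 23965052 to 23988852 in GRCm38, encodes a transcriptional repressor that restrains growth hormone targets and lipid genes in the liver. It measured 27.2, 29.6, 12.98 and 8.89 CPM in PAM I and 35.4, 58.5, 98.5 and 50.9 CPM in PAM II, a log2 fold change of 1.63 ± 0.41 SE (unadjusted p = 0.00127, adjusted p = 0.880, edgeR). All 4 PAM II livers lay above all 4 PAM I livers, with PAM I replicates 3 and 4 lowest, and the controls, at 48.6, 39.4, 43.9 and 22.4 CPM, lay on both sides of the gap between the groups. Il6ra, on chromosome 3 from 89864059 to 89913196, encodes the receptor subunit through which interleukin 6 induces acute phase proteins. It measured 18.5, 21.1, 17.2 and 20.2 CPM in PAM I and 38.5, 37.6, 26.9 and 29.8 CPM in PAM II (log2 fold change 0.79 ± 0.20 SE). The 4 PAM I livers lay close together, and those of PAM II were more spread. Tnfrsf14, on chromosome 4 from 154921933 to 154928563, encodes the immune receptor HVEM and measured 2.79, 2.27, 2.22 and 1.38 CPM in PAM I and 3.68, 4.304, 5.02 and 4.22 CPM in PAM II (log2 fold change 0.99 ± 0.26 SE). The controls, at 4.498, 3.77, 3.901 and 3.56 CPM, lay within or next to the PAM II range and above all 4 PAM I livers.

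F11, on chromosome 8 from 45241174 to 45262031, encodes clotting factor XI, made by hepatocytes. It measured 38.3, 41.2, 36.2 and 34.7 CPM in PAM I and 45.4, 61.1, 58.2 and 58.98 CPM in PAM II (log2 fold change 0.57 ± 0.14 SE), with PAM II replicate 1 well below the other 3. The remaining 6 differed by 0.38 to 0.50 on the log2 scale. Pitpnc1, which encodes a phosphatidylinositol transfer protein, measured 20.6, 17.8, 15.8 and 16.2 CPM in PAM I and 24.9, 24.002, 24.7 and 26.2 CPM in PAM II. Apbb2, an adaptor that binds the amyloid precursor protein, measured 8.28, 8.43, 6.41 and 7.08 CPM against 9.13, 10.7, 10.9 and 11.3 CPM. In both genes the gap between the groups was narrower than the range within PAM I. Nup210, a nuclear pore membrane protein, had a log2 fold change of 0.42 ± 0.10 SE, Wipi1, which binds phosphoinositides on forming autophagosomes, 0.38 ± 0.10 SE, and the cytoskeletal genes Clasp2 and Specc1l 0.43 ± 0.12 SE and 0.44 ± 0.12 SE.

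Among genes with lower values in PAM II, 2 of the 10 were glutathione transferases of the pi class. These enzymes join glutathione to electrophiles, and in mouse liver they are more abundant in males. Gstp1, on chromosome 19 from 4035407 to 4037985, measured 235, 314, 341 and 430.3 CPM in PAM I and 222, 174, 179 and 160.4 CPM in PAM II, a log2 fold change of -0.84 ± 0.20 SE (unadjusted p = 0.000807, adjusted p = 0.880, edgeR). Its neighbour Gstp2, on chromosome 19 from 4040285 to 4046023, measured 5.54, 6.67, 8.398 and 10.9 CPM against 5.19, 3.32, 3.78 and 2.98 CPM (log2 fold change -1.04 ± 0.27 SE). In both, PAM II replicate 1 was the highest PAM II liver and lay just under PAM I replicate 1, the lowest of its group. The genes are near-identical copies, so fragments may have been assigned to either, and they count as 1 observation rather than 2. The controls had 201, 245, 278 and 263 CPM of Gstp1 and overlapped with both groups.

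Cdc42ep5, on chromosome 7 from 4151260 to 4164860, encodes an effector of the small GTPase CDC42 and measured 5.64, 6.01, 13.1 and 9.86 CPM in PAM I and 5.11, 4.33, 3.65 and 3.35 CPM in PAM II (log2 fold change -1.07 ± 0.26 SE). PAM I replicates 3 and 4 were the high livers. Dlec1, a gene described as a tumour suppressor, measured 7.78, 6.46, 7.67 and 10.8 CPM against 4.503, 5.52, 3.33 and 4.88 CPM (log2 fold change -0.84 ± 0.24 SE). Blvrb, which encodes biliverdin reductase B of heme breakdown, measured 161, 162, 201 and 207 CPM against 129.9, 135, 129 and 141 CPM (log2 fold change -0.45 ± 0.13 SE), and its controls, at 124, 134, 129 and 153 CPM, lay around the PAM II values.

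For the other 5 genes the differences were smaller and the values tighter. Map1lc3a, which encodes an LC3 protein of the autophagosome membrane, measured 62.01, 60.7, 71.8 and 73.7 CPM in PAM I and 60.02, 45.5, 48.3 and 48.7 CPM in PAM II (log2 fold change -0.40 ± 0.11 SE). Cdc34, a ubiquitin-conjugating enzyme, measured 86.4, 92.2, 103 and 94.97 CPM against 71.6, 72.1, 71.2 and 68.8 CPM (log2 fold change -0.41 ± 0.10 SE). Mrpl34, a mitochondrial ribosomal protein, measured 37.6, 38.99, 39.8 and 40.8 CPM against 32.5, 29.9, 30.97 and 31.7 CPM (log2 fold change -0.33 ± 0.08 SE). In these 3 genes the PAM I livers lay above all 4 controls, and the PAM II livers lay near them apart from replicate 1 in Map1lc3a. Htatip2 and Med21, a subunit of the Mediator complex, had log2 fold changes of -0.32 ± 0.08 SE and -0.35 ± 0.10 SE. Set beside the controls, which both comparisons share, Map1lc3a differed by 0.51 in PAM I and 0.11 in PAM II, Mrpl34 by 0.35 and 0.02, Gstp1 by 0.42 and -0.42, and Bcl6 by -0.97 and 0.66, all on the log2 scale and none with an adjusted p under 0.05 in edgeR.

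**Figure D2:**
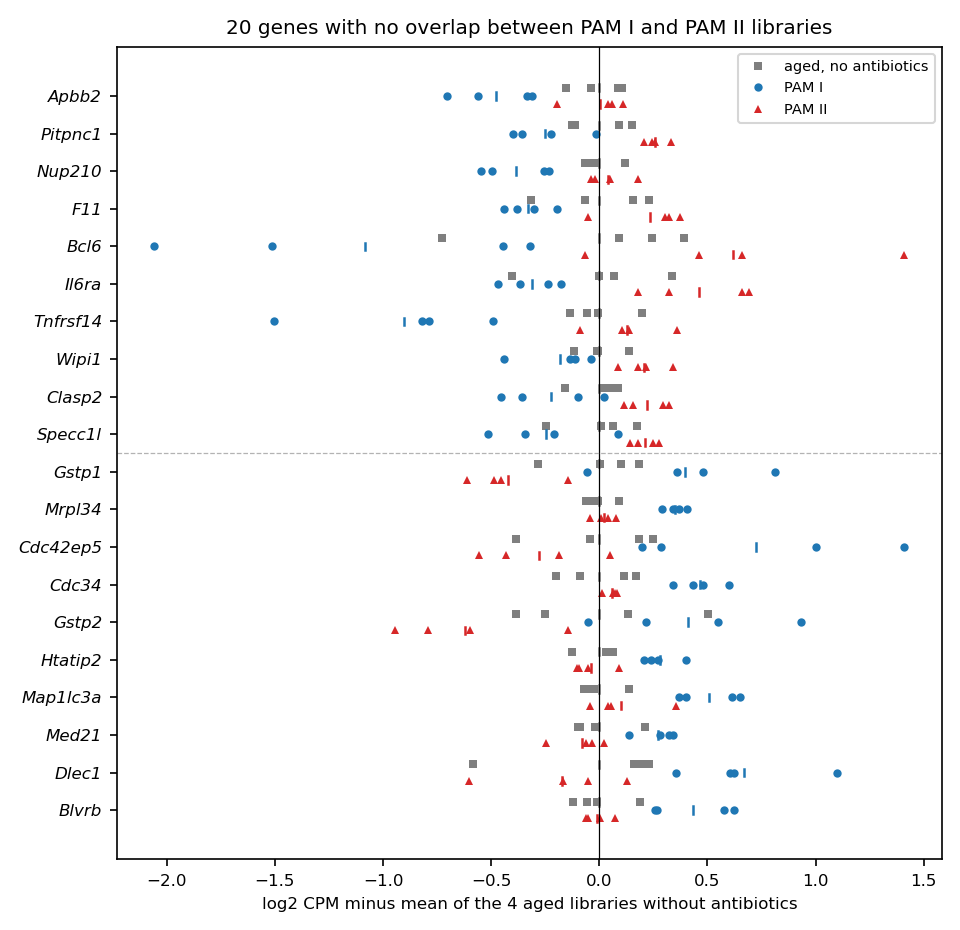
Log2 CPM of the 20 genes in each aged library, minus the mean of the 4 controls (x axis), with 1 gene a row, squares for controls, circles for PAM I and triangles for PAM II, and short bars for group means. Circles and triangles do not overlap in any row, as the choice of these genes requires, and the grey squares lie around the triangles for Mrpl34 and Cdc34 and reach into both groups for Gstp1.

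Genes were then read as 54 lists of liver functions and cell types. A list is described by its median log2 fold change and by the number of members in each direction, beside 8672 positive and 8374 negative genes and a median of 0.01 over all 17046. Members of a list share regulators or cells and are not independent of each other. No list had a member called. Leaving out 1 library turned the sign of the median in 29 of the 54 lists.

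The list that leaned furthest one way was that of cholesterol synthesis and uptake, in which all 24 tested members had a positive log2 fold change, with a median of 0.38 and a range of 0.03 to 1.06. The libraries of 6 members did not overlap, all higher in PAM II, against 1.76% of all genes, and 11 members had an unadjusted p under 0.05, against 2.27% of all genes. Hepatocytes make cholesterol from acetyl-CoA through mevalonate, and when sterols are low SREBP2, the product of Srebf2, is carried to the Golgi by SCAP, cut, and switches on these genes together with NF-Y, which binds CCAAT boxes. Srebf2 itself, on chromosome 15, measured 90.7, 81.8, 69.5 and 83.6 CPM in PAM I and 98.3, 109.8, 104 and 112 CPM in PAM II (log2 fold change 0.38 ± 0.12 SE). Mvk, mevalonate kinase, measured 25.98, 23.2, 21.6 and 29.8 CPM against 35.8, 31.9, 31.6 and 36.5 CPM (log2 fold change 0.43 ± 0.13 SE). Both groups were separate in these genes, by a narrow gap. Msmo1, which removes methyl groups from sterols, measured 186, 155, 90.97 and 159 CPM against 182, 249.6, 212 and 254 CPM (log2 fold change 0.60 ± 0.19 SE), with overlap through PAM II replicate 1.

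Hmgcs1 and Idi1 were singled out after their values were seen. Hmgcs1, which makes the precursor of mevalonate, measured 718, 560.4, 238 and 497 CPM in PAM I and 626, 957, 758 and 894 CPM in PAM II (log2 fold change 0.68 ± 0.29 SE). Idi1, isopentenyl diphosphate isomerase, measured 30.1, 26.6, 8.25 and 17.7 CPM against 34.4, 42.8, 46.1 and 48.9 CPM (log2 fold change 1.06 ± 0.39 SE), the largest difference of the list. In both genes PAM I replicate 3 was the lowest of all 12 aged livers. Over the list, the mean log2 CPM was 7.27, 7.03, 6.30 and 6.96 in PAM I, 7.14, 7.47, 7.33 and 7.44 in PAM II and 6.93, 6.96, 7.26 and 7.02 in controls. PAM I replicate 3 stood below every other aged liver, and PAM I replicate 1 lay inside the PAM II range. Without PAM I replicate 3, 22 of 24 members were positive and 4 had an unadjusted p under 0.05, with a median of 0.28. Leaving out PAM II replicates 2 or 4 also brought the number under 0.05 to 4, and leaving out PAM I replicate 4 brought it to 7, with all 24 positive in these 3 fits. Leaving out PAM II replicate 1, the liver with high marrow genes, gave 24 positive members, 14 of them under 0.05, and a median of 0.45.

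Promoters of the list show what these genes have in common in sequence. Of 24 members, 16 had a promoter in the RefSeq table of GRCm38.p6, and in the 250 bases before the start 15 of those 16, all but Scap, held CCAAT or its reverse complement ATTGG. The same letters stood in 37.5% of 27025 genes with a promoter in that table. The sterol element TCACCCCAC, or GTGGGGTGA on the other strand, was found in 1 of the 16, Hmgcs1, and in 0.555% of the 27025. Only these exact letters were searched, so a stretch that differs by 1 base was not counted, and the other promoters may hold variants. The Srebf2 promoter printed below holds TCACCCCAT, which differs from the element in its last base and is not in capitals. Those 250 bases are printed 5′ to 3′ on the strand of the gene for 4 members described above, with both motifs in capitals, at chr5:114444019-114444268 (plus strand) for Mvk, chr8:64733579-64733828 (minus strand) for Msmo1, chr15:82147019-82147268 (plus strand) for Srebf2 and chr13:119690101-119690350 (plus strand) for Hmgcs1.
Mvk: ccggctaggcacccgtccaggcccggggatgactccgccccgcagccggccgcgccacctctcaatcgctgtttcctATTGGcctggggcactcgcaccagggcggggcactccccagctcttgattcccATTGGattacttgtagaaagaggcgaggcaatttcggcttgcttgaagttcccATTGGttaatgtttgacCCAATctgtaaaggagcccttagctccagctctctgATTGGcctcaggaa
Msmo1: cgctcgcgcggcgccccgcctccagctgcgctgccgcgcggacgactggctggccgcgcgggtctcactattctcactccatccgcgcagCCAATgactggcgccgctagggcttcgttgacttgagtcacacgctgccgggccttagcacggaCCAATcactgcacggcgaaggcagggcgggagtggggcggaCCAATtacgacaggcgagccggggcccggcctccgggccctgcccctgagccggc
Srebf2: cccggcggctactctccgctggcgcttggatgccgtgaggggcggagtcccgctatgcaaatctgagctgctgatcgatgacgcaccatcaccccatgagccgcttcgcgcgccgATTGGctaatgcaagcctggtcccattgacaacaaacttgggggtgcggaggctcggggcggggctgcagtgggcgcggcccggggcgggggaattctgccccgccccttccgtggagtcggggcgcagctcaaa
Hmgcs1: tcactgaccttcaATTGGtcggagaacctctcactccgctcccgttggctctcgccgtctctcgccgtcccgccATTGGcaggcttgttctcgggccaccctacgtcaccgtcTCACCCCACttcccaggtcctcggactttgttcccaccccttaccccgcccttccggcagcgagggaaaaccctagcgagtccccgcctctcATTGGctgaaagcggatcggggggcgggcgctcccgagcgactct
Mvk held 5 such boxes, the nearest starting 14 bases before the start, Msmo1 held 3, Srebf2 held 1, and Hmgcs1 held 3 beside the sterol element 137 bases before the start. A match of letters is a description of the sequence and not a measured binding site.

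**Figure D3:**
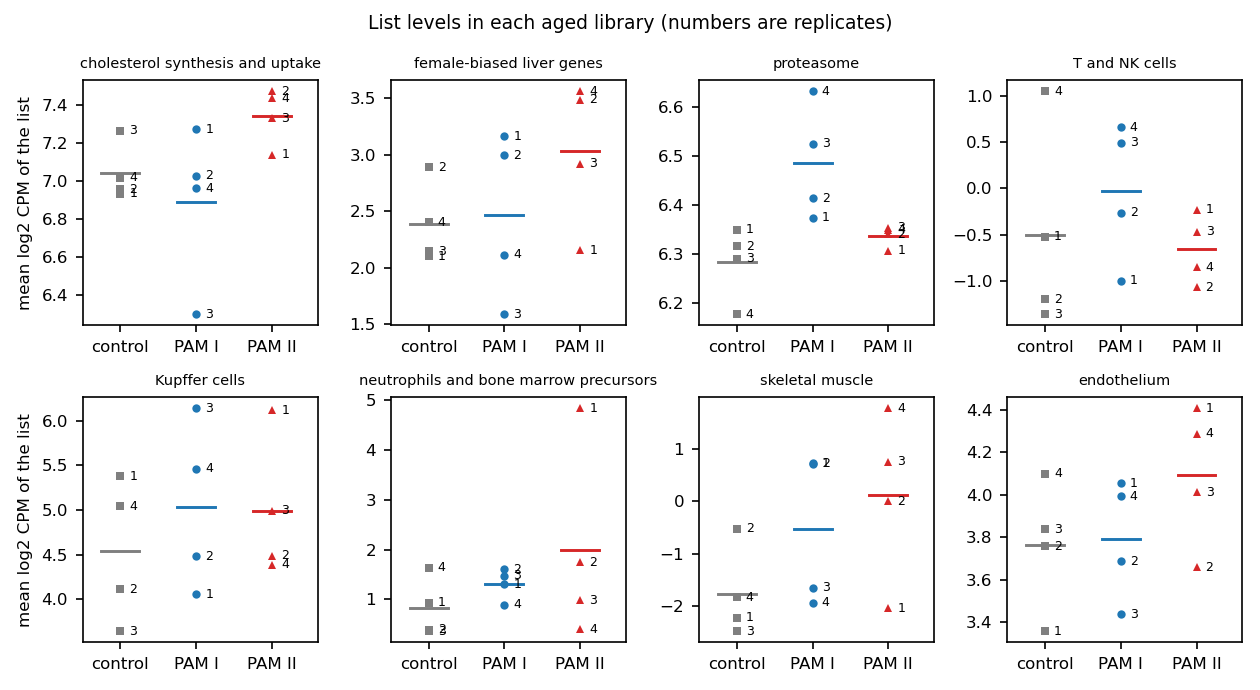
Mean log2 CPM over the members of 8 lists (y axis, a separate scale in each panel) in each aged library, by group, with replicate numbers beside the points and bars for group means. PAM I replicate 3 is the low point of the cholesterol panel at 6.30, PAM II replicate 1 is the high point of the neutrophil and bone marrow panel at 4.84, and the muscle panel spreads within both antibiotic groups.

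Proteasome and heat shock genes leaned the other way. The proteasome, the complex that degrades ubiquitin-tagged proteins, had 29 of 31 subunit genes with a negative log2 fold change, 7 of them without overlap, against 2.9% of all genes, and a median of -0.16. The differences were small in every member, from -0.31 to 0.10. Psmb5, a catalytic subunit, measured 71.01, 83.9, 84.1 and 95.5 CPM in PAM I and 67.1, 71.2, 63.2 and 69.4 CPM in PAM II (log2 fold change -0.30 ± 0.10 SE), with PAM I replicate 1 inside the PAM II range. The alpha ring genes Psma7 (log2 fold change -0.22 ± 0.08 SE) and Psma3 (log2 fold change -0.23 ± 0.09 SE) did not overlap. On the list mean the PAM II livers and the controls were close together, at 6.31, 6.34, 6.35 and 6.35 and 6.35, 6.32, 6.29 and 6.18, and PAM I lay above them at 6.37, 6.41, 6.52 and 6.63. The number of members at an unadjusted p under 0.05 was 8, all lower, against 2.29% of all genes. It was 1, close to that share, without PAM I replicate 3, PAM I replicate 4 or PAM II replicate 4, with 28 to 30 negative members in those 3 fits. It was 2 without PAM II replicate 3 and 5 without PAM II replicates 1 or 2, and the median was -0.11 without PAM I replicate 4.

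Heat shock genes, which encode chaperones that refold proteins, were negative in 17 of 19, with 3 lower without overlap, against 2.9% of all genes, and a median of -0.20. At an unadjusted p under 0.05 there were 6 members, all lower, against 2.29% of all genes. That number was 1 without PAM I replicate 4 and 2 without PAM I replicate 3 or PAM II replicate 2. Leaving out a library moved the median between -0.27 and -0.15. The smallest p of all 54 lists belonged to Hspb1, a small heat shock protein, with 25.5, 34.8, 58.2 and 46.1 CPM in PAM I and 21.5, 18.3, 27.4 and 18.2 CPM in PAM II (log2 fold change -0.95 ± 0.21 SE, unadjusted p = 0.000427, adjusted p = 0.880, edgeR). PAM II replicate 3 lay above PAM I replicate 1, so the groups overlapped. Dnajb1, a co-chaperone of HSP70, measured 20.8, 21.7, 27.95 and 27.7 CPM against 20.6, 16.3, 18.9 and 19.2 CPM (log2 fold change -0.39 ± 0.14 SE). Hspe1, the mitochondrial partner of HSP60, measured 88.1, 85.2, 87.1 and 112 CPM against 79.9, 77.7, 72.7 and 70.99 CPM (log2 fold change -0.30 ± 0.10 SE), with PAM I replicate 4 far above the rest, and it has processed copies in the genome that could share fragments.

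Antioxidant genes and targets of the transcription factor NRF2 were negative in 17 of 25, with a median of -0.11, which was -0.065 without PAM I replicate 4 and -0.20 without PAM II replicate 1. Genes of endoplasmic reticulum stress, the response to unfolded secretory proteins, were split, 13 positive and 16 negative with a median of -0.095, and without PAM I replicate 3 the median was 0.04. Drug-metabolising cytochromes and conjugating enzymes were positive in 32 of 52 with a median of 0.11, which was -0.020 without PAM II replicate 4. With all libraries 0 members were higher and 4 lower at an unadjusted p under 0.05, against 2.27% and 2.29% of all genes. Without PAM II replicate 1 these numbers were 8 and 0, and without PAM I replicate 2, PAM I replicate 4 or PAM II replicate 3 they were 0 and 0. Gstm1, a glutathione transferase of the mu class, measured 3752, 4006, 2953 and 3906 CPM in PAM I and 1958, 2878, 2468 and 2825 CPM in PAM II (log2 fold change -0.53 ± 0.22 SE), and Ephx1, microsomal epoxide hydrolase, 519, 643, 598 and 684 CPM against 371, 502, 449.8 and 489 CPM (log2 fold change -0.43 ± 0.17 SE). Both were separate between the groups and the controls reached into both ranges. Of the 52 members, 2 were lower without overlap, a share close to the 2.9% over all genes, and 0 were higher without overlap. Gstm4 had a log2 fold change of -0.34 ± 0.14 SE with overlap, and Gstm genes are close copies of each other, so their counts are uncertain.

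**Figure D4:**
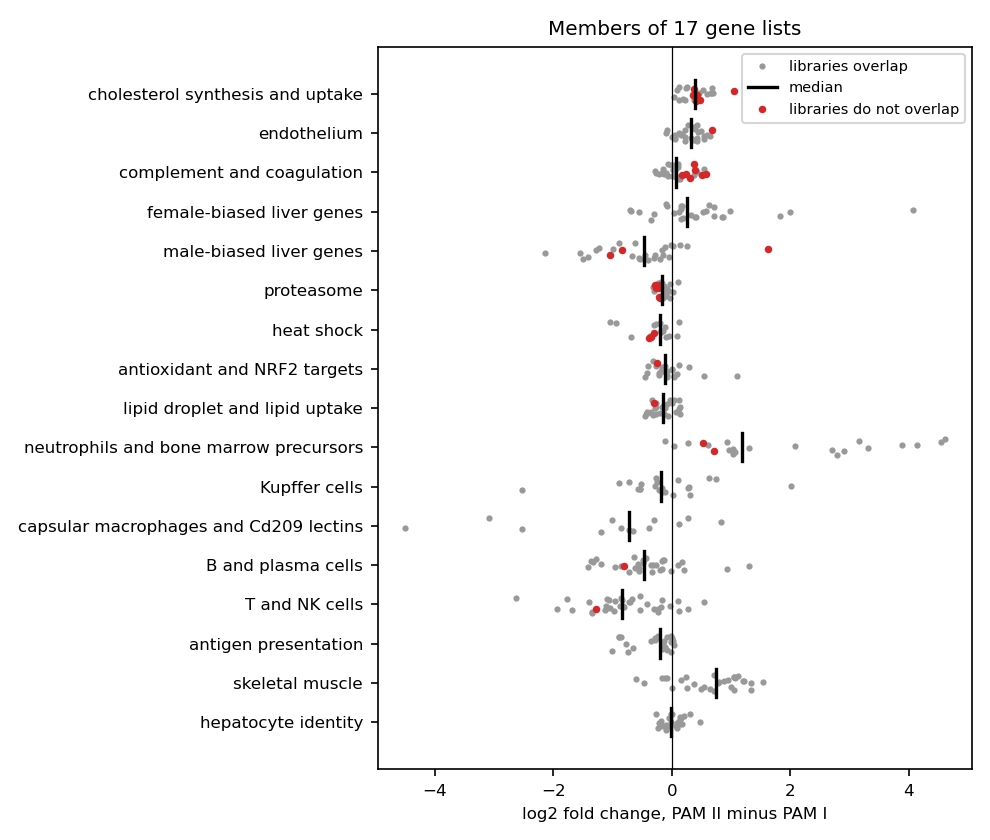
Log2 fold change, PAM II minus PAM I (x axis), of each tested member of 17 lists, 1 list a row, with black bars for medians and red points for members whose 4 and 4 libraries do not overlap. The cholesterol row lies wholly to the right of 0, 29 of 31 points of the proteasome row lie to its left, and the rows of blood cells and muscle are wide.

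Proteins that hepatocytes secrete into blood varied by gene. Of 36 complement and coagulation genes, 25 were positive with a median of 0.08, and 7 were higher in PAM II without overlap, against 1.76% of all genes, while 2 had an unadjusted p under 0.05, against 2.27%. Without PAM I replicate 3, 33 were positive with a median of 0.15. Besides F11, Masp1, a protease of the lectin pathway of complement, measured 147, 143, 139.6 and 125 CPM in PAM I and 153, 189, 191 and 190.3 CPM in PAM II (log2 fold change 0.39 ± 0.12 SE), and 3 PAM II livers were nearly equal with replicate 1 far below them. Of 32 acute phase genes, 20 were positive with a median of 0.13. Without PAM II replicate 1, 15 were positive and the median was -0.049, and without PAM I replicate 3 it was 0.26. Hamp, which encodes the iron hormone hepcidin, measured 208, 211, 544 and 564 CPM against 67.7, 138, 267 and 103 CPM (log2 fold change -1.41 ± 0.45 SE). PAM I replicates 3 and 4 were high, and PAM II replicate 3 lay above PAM I replicates 1 and 2. In the list of iron handling, 9 of 16 were positive. Slc39a14, a zinc and iron importer, measured 136, 133, 140.3 and 122 CPM against 169, 188, 159 and 163 CPM (log2 fold change 0.35 ± 0.11 SE), and Ftl1, ferritin light chain, which has many processed copies, 3271, 3391, 2845 and 4159.5 CPM against 2498, 2554, 2503 and 2636 CPM (log2 fold change -0.42 ± 0.14 SE). These were separate in opposite directions.

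Of 17 heme genes, 13 were negative with a median of -0.08, which ran from -0.16 without PAM II replicate 1 to -0.030 without PAM II replicate 3. Alas1, the rate-limiting enzyme of heme synthesis, measured 215, 268, 310.3 and 229 CPM in PAM I and 149, 168, 166 and 136 CPM in PAM II (log2 fold change -0.72 ± 0.24 SE), with all PAM II livers below all PAM I livers. The controls had 138, 118, 127 and 108 CPM, so that all 4 PAM I livers lay above every control, and the log2 difference from controls was 1.06 in PAM I and 0.33 in PAM II, neither with an adjusted p under 0.05 in edgeR. Hepatokines were negative in 16 of 24 with a median of -0.07. Among them Inhba, the activin A subunit, measured 7.86, 6.67, 7.57 and 2.89 CPM against 9.04, 9.798, 15.2 and 9.43 CPM (log2 fold change 0.80 ± 0.28 SE). PAM I replicate 4 was far below its group and PAM II replicate 3 far above its own. Tsku, a secreted proteoglycan, had 52.5, 111, 97.2 and 60.9 CPM against 35.8, 56.6, 45.7 and 47.8 CPM (log2 fold change -0.79 ± 0.35 SE), with 1 PAM II liver above the lowest PAM I liver.

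In lipid metabolism, 22 of 29 genes of lipid droplets and lipid uptake were negative, with a median of -0.16, which was -0.096 without PAM II replicate 3. Of the 29, 1 was lower without overlap, against 2.9% of all genes. At an unadjusted p under 0.05, 1 was lower, against 2.29%, and both shares are close to those over all genes. Plin5, a droplet coat protein that ties droplets to mitochondria, measured 62.5, 74.2, 71.3 and 69.5 CPM in PAM I and 58.9, 58.8, 52.8 and 54.1 CPM in PAM II (log2 fold change -0.30 ± 0.15 SE), without overlap. Plin2, the main droplet coat of hepatocytes, measured 785, 876, 639.7 and 970.2 CPM against 647, 625, 622 and 674 CPM (log2 fold change -0.35 ± 0.18 SE), and PAM I replicate 3 lay among the PAM II livers. G0s2, an inhibitor of lipolysis, measured 167, 195, 184 and 104 CPM against 129, 106, 127 and 127 CPM (log2 fold change -0.41 ± 0.19 SE), with PAM I replicate 4 lowest of the 8 and PAM II replicate 2 far below its group. Fatty acid synthesis had 16 of 23 positive with a median of 0.12. Without PAM I replicate 3, 10 of 23 were positive and the median was -0.016, and without PAM II replicate 1 it was 0.27. Fatty acid oxidation and targets of PPAR-alpha had 26 of 32 negative with a median of -0.09. Without PAM II replicate 1 or PAM I replicate 4, 19 of 32 were negative and the median was -0.016 or -0.031. Ppara itself, the fasting-activated nuclear receptor, went the other way at 62.6, 53.8, 28.7 and 29.1 CPM against 45.7, 78.5, 75.04 and 93.1 CPM (log2 fold change 0.75 ± 0.34 SE), with PAM II replicate 1 below PAM I replicates 1 and 2. Acaa1b, a peroxisomal thiolase with a close paralogue, measured 2823, 2293, 2212 and 3389 CPM against 1442, 2094, 1664 and 2041 CPM (log2 fold change -0.57 ± 0.22 SE), without overlap. Acot1, a thioesterase with near-identical paralogues, had a log2 fold change of -0.60 ± 0.28 SE, with PAM II replicate 1 far below the other PAM II livers.

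Sex-biased liver genes, which growth hormone pulses set through STAT5B, were spread widely inside both groups. Male-biased genes were negative in 25 of 29 with a median of -0.47, and without PAM I replicate 3 they were negative in 14 of 29 with a median of 0.03. Female-biased genes were positive in 21 of 28 with a median of 0.25, and in 17 of 29 with a median of 0.11 without that liver. Atp6v0d2, a proton pump subunit, had 10.4, 5.95, 4.48 and 4.898 CPM against 7.75, 13.4, 11.6 and 14.1 CPM (log2 fold change 0.86 ± 0.25 SE), with PAM II replicate 1 below PAM I replicate 1. In growth hormone signalling, Stat5b measured 71.7, 69.8, 55.9 and 53.6 CPM against 73.3, 85.7, 82.7 and 87.2 CPM (log2 fold change 0.39 ± 0.14 SE) and its target Cish, a feedback inhibitor, 9.86, 11.1, 45.04 and 16.4 CPM against 8.92, 7.01, 5.37 and 7.29 CPM (log2 fold change -1.52 ± 0.71 SE). Stat5b was separate upward and Cish separate downward, with PAM I replicate 3 far above the rest in Cish. The list of growth hormone and STAT5 signalling was positive in 11 of 17 with a median of 0.05. Of the 17, 3 were higher and 2 lower without overlap, against 1.76% and 2.9% of all genes.

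The mTOR list had 15 of 25 positive with a median of 0.10, or 0.06 without PAM I replicate 4, and Sesn1, an mTORC1 inhibitor, measured 12.5, 10.8, 11.1 and 12.99 CPM in PAM I and 16.1, 14.96, 13.5 and 13.7 CPM in PAM II (log2 fold change 0.30 ± 0.10 SE), without overlap. Autophagy had 19 of 30 positive with a median of 0.02, or -0.010 without PAM II replicate 4. Its members Wipi1 and Map1lc3a, described above, lay on opposite sides, and Gabarap, an LC3 relative, had -0.27 ± 0.11 SE. DNA methylation genes were split, 7 positive and 10 negative with a median of -0.03, or 0.07 without PAM II replicate 4. Among them Tet3, an enzyme that oxidises methylcytosine, measured 18.1, 17.02, 16.8 and 10.2 CPM against 19.1, 23.9, 20.8 and 25.7 CPM (log2 fold change 0.53 ± 0.16 SE). PAM I replicate 4 lay far below the rest in Tet3, and the controls, at 29.6, 28.5, 25.95 and 27.2 CPM, lay above all 8. The core clock was positive in 14 of 17 with a median of 0.16, which ran from 0.10 without PAM I replicate 3 to 0.28 without PAM II replicate 1, its member with the smallest p being Cry2 (log2 fold change 0.39 ± 0.16 SE), and the hour of sampling is not in the labels. Immediate early genes were split, 11 positive and 13 negative, with Egr1, a growth-induced transcription factor, at 1.07 ± 0.43 SE and Jund, an AP-1 subunit, at -0.49 ± 0.19 SE.

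Lymphocyte genes had mostly lower values in PAM II. T and NK cell genes were negative in 34 of 38, with a median of -0.85, 1 member lower without overlap, against 2.9% of all genes, and 3 at an unadjusted p under 0.05, against 2.29%. A count of 1 in 38 is no larger a share than that over all genes, and the 3 were 0 without PAM I replicate 3 and 7 without PAM I replicate 1. Cd4, the helper T cell coreceptor that some macrophages also carry, measured 0.419, 1.07, 9.58 and 7.72 CPM in PAM I and 0.361, 0.304, 1.33 and 1.03 CPM in PAM II (log2 fold change -2.64 ± 1.07 SE). Cd3d, a subunit of the T cell receptor complex, measured 0.315, 0.556, 1.099 and 1.51 CPM against 0.447, 0.203, 0.435 and 0.211 CPM (log2 fold change -1.40 ± 0.58 SE). PAM I replicates 3 and 4 were high in both genes, and PAM I replicate 1 lay within the PAM II range. Fasl, a ligand of cytotoxic cells, did not overlap at 0.147, 0.299, 0.456 and 0.151 CPM against 0.1203, 0.127, 0.109 and 0.0704 CPM (log2 fold change -1.28 ± 0.54 SE) and stayed under 1 CPM in all 8 livers. The list mean was -0.996, -0.26, 0.49 and 0.66 in PAM I, -0.23, -1.07, -0.47 and -0.85 in PAM II and -0.52, -1.20, -1.36 and 1.05 in controls, so that the controls spanned more than both antibiotic groups. Leaving out a library moved the median between -1.13 and -0.64.

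B and plasma cell genes were negative in 28 of 33 with a median of -0.47. At an unadjusted p under 0.05 there were 0 members in either direction, against 2.27% higher and 2.29% lower of all genes. Of the 33, 1 was lower without overlap, a share close to the 2.9% over all genes. Ighm, the heavy chain of IgM, measured 186, 128, 228 and 514 CPM in PAM I and 212, 149, 104 and 120.0 CPM in PAM II (log2 fold change -0.85 ± 0.40 SE), and Igkc, the kappa light chain, 91.1, 58.5, 222 and 476 CPM against 188, 60.01, 59.7 and 29.6 CPM (log2 fold change -1.33 ± 0.64 SE). PAM I replicate 4 was the high liver in both. Without it, 17 of the 33 were negative and the median was -0.03. Ms4a1, which encodes CD20, did not overlap at 2.097, 1.75, 1.87 and 3.54 CPM against 1.74, 1.19, 1.07 and 1.27 CPM (log2 fold change -0.81 ± 0.42 SE). Ulbp1, a ligand of the NK cell receptor NKG2D, measured 0.692, 0.492, 1.12 and 0.906 CPM against 0.447, 0.405, 0.261 and 0.305 CPM (log2 fold change -1.17 ± 0.33 SE), without overlap and at low counts. Antigen presentation genes were negative in 22 of 24 with a median of -0.19, or -0.088 without PAM I replicate 4. Of the 24, 0 had an unadjusted p under 0.05 in either direction, against 2.27% higher and 2.29% lower of all genes. Likewise 0 were without overlap, against 1.76% higher and 2.9% lower of all genes. Among them were Cd74, the MHC class II invariant chain (log2 fold change -1.01 ± 0.53 SE), and H2-Aa (log2 fold change -0.90 ± 0.50 SE), both with overlap. MHC genes are close copies of each other.

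Macrophage genes followed single livers more than groups. Kupffer cell genes were negative in 14 of 22 with a median of -0.19, which was 0.25 without PAM I replicate 3, 0.04 without PAM II replicate 4 and -0.81 without PAM II replicate 1. Cd163, a hemoglobin scavenger receptor, measured 1.32, 0.577, 65.6 and 1.12 CPM in PAM I and 4.62, 1.04, 2.89 and 3.31 CPM in PAM II (log2 fold change -2.52 ± 1.32 SE), and its log2 fold change was 1.57 without PAM I replicate 3, which alone held most of it. Marco, a scavenger receptor for bacteria, measured 2.54, 0.599, 4.69 and 2.24 CPM against 11.6, 2.73, 21.4 and 5.02 CPM (log2 fold change 2.02 ± 1.05 SE). Id3, a factor that Kupffer cells need, had -0.89 ± 0.33 SE. Genes of capsular macrophages and Cd209 lectins were negative in 10 of 13 with a median of -0.72, and -0.16 without PAM I replicate 3. Clec10a, a galactose lectin, measured 0.524, 1.15, 10.6 and 6.11 CPM against 1.03, 0.3798, 0.435 and 0.281 CPM (log2 fold change -3.08 ± 0.91 SE), and Cd209f, of a family of close copies, 0, 0.0428, 5.35 and 1.55 CPM against 0.0859, 0, 0.196 and 0 CPM (log2 fold change -4.51 ± 1.65 SE). PAM I replicates 3 and 4 were the highest in both, and the other 6 livers had at most 1.15 CPM of Clec10a and 0.196 CPM of Cd209f.

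Ccl24, a chemokine for eosinophils, measured 1.15, 3.51, 16.4 and 8.69 CPM in PAM I and 1.43, 1.16, 0.391 and 0.961 CPM in PAM II (log2 fold change -2.91 ± 0.84 SE), and Trem2, a receptor of lipid-associated macrophages, 2.26, 9.03, 17.5 and 19.6 CPM against 6.84, 3.72, 1.63 and 1.36 CPM (log2 fold change -1.83 ± 0.71 SE). PAM I replicate 1 lay within the PAM II range in both. The list of recruited and lipid-associated macrophages was split, 9 positive and 12 negative with a median of -0.11. At an unadjusted p under 0.05, 3 of its members were higher and 1 lower, against 2.27% and 2.29% of all genes. Its median was -0.64 without PAM II replicate 1 and 0.10 without PAM II replicate 4. Fn1, fibronectin, which hepatocytes secrete and recruited macrophages also make, did not overlap at 1194, 1093, 1039 and 1061 CPM against 1289.6, 1840.0, 1699 and 2023 CPM (log2 fold change 0.64 ± 0.24 SE). Inflammation and NF-kappaB genes were negative in 24 of 33 with a median of -0.32, which ran from -0.56 without PAM II replicate 1 to -0.12 without PAM II replicate 4. Cxcl2, a neutrophil chemokine, did not overlap at 0.336, 0.663, 0.809 and 0.2805 CPM against 0.275, 0.279, 0.109 and 0.164 CPM (log2 fold change -1.32 ± 0.50 SE), at well under 1 CPM in every liver. Nfkb1, an NF-kappaB subunit, had 0.19 ± 0.09 SE, with PAM II replicate 2 far below its group. Type I interferon-stimulated genes were negative in 21 of 37 with a median of -0.08, or 0.01 without PAM I replicate 3, with Bst2, which tethers virus particles, at -0.43 ± 0.14 SE and Ifi27, of a family of close copies, at -0.37 ± 0.17 SE.

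Neutrophil and bone marrow genes were positive in 21 of 22 with a median of 1.19, and this rested on PAM II replicate 1. Without that liver, 10 of 22 were positive and the median was -0.22. Ltf, lactoferrin of neutrophil granules, measured 0.0629, 0.1497, 0.166 and 0.432 CPM in PAM I and 18.96, 0.861, 0.109 and 0.0235 CPM in PAM II (log2 fold change 4.62 ± 1.46 SE), and Elane, neutrophil elastase, 0.315, 0.364, 0.622 and 0.173 CPM against 9.88, 0.557, 0.261 and 0.422 CPM (log2 fold change 2.92 ± 0.95 SE). Cdkn2a, a cell cycle inhibitor used as a senescence marker, was high in the same liver, at 0.315, 0.171, 0.207 and 0.432 CPM against 3.45, 0.304, 0.522 and 0.328 CPM (log2 fold change 2.04 ± 0.71 SE). Klf1, an erythroid transcription factor, was separate between all livers at 3.19, 2.01, 2.65 and 2.55 CPM against 5.67, 4.0004, 3.61 and 3.799 CPM (log2 fold change 0.72 ± 0.22 SE). Cell division genes were negative in 25 of 36 with a median of -0.14. Without PAM I replicate 2, 17 of 36 were negative and the median was 0.03, and without PAM II replicate 1, 33 were negative and it was -0.43. Among them Tyms, thymidylate synthase, had -0.26 ± 0.12 SE.

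Endothelial genes were positive in 25 of 27 with a median of 0.32, with 1 member higher without overlap, against 1.76% of all genes, and 2 at an unadjusted p under 0.05, against 2.27%. Vwf, the platelet adhesion factor of larger vessels, measured 8.305, 8.13, 7.57 and 8.31 CPM in PAM I and 16.8, 13.5, 9.44 and 11.9 CPM in PAM II (log2 fold change 0.68 ± 0.23 SE). Stab2, a scavenger receptor of sinusoidal endothelium, measured 51.3, 41.02, 36.2 and 37.1 CPM against 73.2, 49.9, 41.5 and 58.4 CPM (log2 fold change 0.43 ± 0.19 SE), and Kdr, the main VEGF receptor, had 0.65 ± 0.32 SE. Of these 3, Vwf alone was separate between the groups. Without PAM II replicate 1, whose list mean was highest, 21 of 27 were positive with a median of 0.15. Stellate cell and fibrosis genes had 13 of 30 positive with a median of -0.03, which ran from -0.18 without PAM II replicate 1 to 0.09 without PAM II replicate 4. Bile duct genes had 12 of 16 positive with a median of 0.20. Without PAM II replicate 1, 4 of 16 were positive and the median was -0.37, and without PAM I replicate 3, 8 of 16 were positive. The hepatocyte identity list, 12 positive and 13 negative with a median of -0.01, showed no lean.

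Skeletal muscle genes, whose RNA is not expected from hepatocytes, were positive in 25 of 30 with a median of 0.75, and in 13 of 30 with a median of -0.05 without PAM II replicate 4, the liver with the most of it. With the mean of that list as a covariate the cholesterol median was 0.39 with 24 of 24 positive, the proteasome median -0.15 and the heat shock median -0.21. With the Kupffer cell mean as a covariate these medians were 0.39, -0.16 and -0.20, and the median of T and NK cell genes was -0.73.

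The share of fragments from the mitochondrial genome was 6.24% ± 1.31 (SD, n = 4) in PAM I and 6.31% ± 1.62 (SD, n = 4) in PAM II. The difference of 0.0685 percentage points had a two-sided exact permutation p of 0.971, and the smallest p that 70 regroupings allow is 0.0286. Of 13 mitochondrial mRNAs, 8 were positive with a median of 0.16. Without PAM II replicate 4, 6 were positive and the median was -0.10, and with the muscle covariate it was -0.022. The gene with the smallest p, mt-Nd3, a subunit of complex I, measured 4.89, 3.79, 2.88 and 3.71 CPM in PAM I and 2.53, 3.72, 2.89 and 88.6 CPM in PAM II (log2 fold change 2.68 ± 0.90 SE), and without PAM II replicate 4 its log2 fold change was -0.32.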

How the data were processed

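Liver RNA of 16 mice was sequenced in 4 groups of 4. Per the submitters' processing notes, Trimmomatic 0.38 trimmed the reads, HISAT2 2.1.0 placed them on mm10, and gene counts came from featureCounts 1.5.0-p2. Per the file headers, the authors counted fragments over exons of each Ensembl release 99 gene (GRCm38), pairs once, with strand setting 1, and the deposited values are raw counts. Groups were set by title, age and group fields, since the description of the 12-week samples contradicts these 3. Symbols and positions came from GENCODE M21 for 55230 of 55471 identifiers.

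The analysis used edgeR 4.0.16 under R 4.3.3: filterByExpr (17046 genes kept), TMM scaling, and 1 robust quasi-likelihood model of all 16 libraries with a mean per group, tested in both directions with Benjamini-Hochberg adjustment over all genes and a threshold of 0.05. Log2 CPM used a prior count of 2. The biological coefficient of variation was 27.3%. The test was tried on simulated data first. Genes were named by the rule given in the report (10 per direction) and as up to 3 members per list with the smallest p. A few genes that this rule picks are not reported here. The comparison, the 54 lists and the genes named were chosen with earlier results of these data known. Other settings tried were upper-quartile and RLE scaling, a filter of 1 CPM in 4 libraries or none, no robust step, DESeq2 1.42.0, voom with quality weights in limma 3.58.1, the 8 or the 12 aged libraries alone, covariates for skeletal muscle genes, for Kupffer cell genes and for Arntl and Dbp, and leaving out each of the 8 libraries. The fit with muscle and Kupffer cell covariates together was chosen after seeing the data. Promoters came from RefSeq (GRCm38.p6). Single values per library were compared by exact permutation.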

Additional observations from a re-analysis of the deposited data

Results flagged for a closer look

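A group of 4 was listed when its highest or lowest library lay so far from the nearest other that the gap, as a share of the group's range in log2 CPM, passed Dixon's 95% critical value for 4 values. Of 280 sets of 4 examined (20 genes, 65 list members, 54 lists and the mitochondrial share, in each group), 16 met this. Chance alone would give about 14 if the sets were independent and normally distributed. These sets share libraries and many were chosen on their values, so 14 is only a rough guide. The gap as a share of the range is given for each.

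In PAM I, replicate 4 was lowest for Inhba (0.835) and Tet3 (0.868) and highest for Hspe1 (0.876). Replicate 3 was highest for Cd163 (0.832), for the mean of pericentral hepatocyte genes (0.941) and for the mean of tryptophan and NAD genes (0.885).

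In PAM II, replicate 1 was lowest for F11 (0.839), Masp1 (0.953), Acot1 (0.838), the hepatocyte identity mean (0.938) and the bile acid mean (0.936), and highest for the phosphatidylcholine synthesis mean (0.900). Replicate 2 was lowest for G0s2 (0.929) and Nfkb1 (0.902), replicate 3 highest for Inhba (0.845) and replicate 4 highest for mt-Nd3 (0.892). PAM II replicate 1 was also the liver with high neutrophil and bone marrow genes, at a list mean of 4.84, and its part in these values was not tested.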

How the results depend on the processing

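No gene was called under any of 21 alternatives, with smallest adjusted p between 0.0866 and 0.99992 and 381 to 2936 genes at an unadjusted p under 0.05. The count of 778 moved by over 1.5 times in 2936 (voom), 1326 (8 libraries alone), 1455 (Arntl and Dbp), 1235 (Kupffer cells), 1683 (muscle and Kupffer cells), and, leaving out a library, 1330, 411 and 381 (PAM I replicates 1, 3 and 4) and 1687, 494 and 414 (PAM II replicates 1, 3 and 4), and the cause was not tested. With upper-quartile scaling 7803 genes were positive and 9243 negative, against 8672 and 8374. Of 3382 values of 162 genes under these alternatives, 3369 kept their direction and 13 reversed. Under voom these were Cdh1 (-0.16), Cd163 (0.51), Postn (-0.0037), Cd24a (-0.34), Elovl3 (0.12) and Slc5a1 (-0.067). Leaving out each library, log2 fold changes ran from -0.22 to 0.85 in Cdh1, -0.038 to 0.68 in Lpcat1, -2.92 to 1.57 in Cd163, -0.50 to 1.52 in Cd24a, -0.74 to 0.029 in Elovl3, -0.32 to 3.08 in mt-Nd3 and -1.77 to 0.0082 in mt-Co3. The reversals came without PAM II replicate 1 in Cdh1, Lpcat1 and Cd24a, without PAM I replicate 3 in Cd163 and Elovl3, without PAM II replicate 4 in mt-Nd3 and without PAM I replicate 1 in mt-Co3. The difference in mitochondrial share ran from -0.521 to 0.79 percentage points. Of 1134 list medians, 1126 moved by less than the spread between replicates, which is wide in many lists, and 88 changed sign. These came from 30 of 54 lists, among them 12 of the 27 with a median beyond 0.1 either way: male-biased, drug metabolism, fatty acid synthesis, acute phase, Kupffer cells, recruited macrophages, neutrophils, cell division, bile duct, fetal and tumour markers, muscle and mitochondrial mRNA. The 8 that moved further were hepatocyte identity (0.09 under voom, 0.07 without PAM I replicate 3), insulin signalling (0.30), hepatokines (-0.14) and tryptophan and NAD (0.22) without PAM II replicate 1, phosphatidylcholine synthesis (0.05 under voom and without PAM II replicate 4) and adipose tissue (-0.18 without PAM II replicate 4). No paired analysis was possible because the labels give no replicate numbers, and those in the text follow sample order and pair no libraries. With 4 livers a group, differences under about 0.466 on the log2 scale lie inside the 95% interval of the median gene.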
